A study of Mus musculus with 67 samples.

Results

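The chromatin elements examined here are those annotated to 9 genes of the bone morphogenetic protein (BMP) pathway: the ligand genes Bmp4 and Bmp7, the pathway inhibitors Bambi, Smad6 and Smad7, and the response genes Id1, Id2, Id3 and Id4. An element was a member when the annotation deposited with the values gave it one of these genes as its nearest, and 99 of the 111638 elements with values met that rule. A further 19 elements annotated to the same genes carried no value and were not analysed here. Bmp7 had 21 members, Smad6 17, Bambi 16, Smad7 12, Id4 10, Id3 7, Id1 6, Id2 6 and Bmp4 4.

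BMP ligands are secreted proteins that bind paired serine/threonine kinase receptors, which phosphorylate SMAD transcription factors that enter the nucleus. Smad6 and Smad7 encode inhibitory SMADs and Bambi a pseudoreceptor, and their transcription is commonly induced by the pathway they restrain. The Id proteins are helix-loop-helix factors without a DNA-binding region, which antagonise proneural factors, and their genes are classic targets of BMP signalling. In the neural tube BMPs act from the dorsal side, opposite to Sonic hedgehog (Shh) from the notochord and floor plate.

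Accessibility was measured by ATAC-seq, in which a transposase cuts open chromatin, in cells sorted by intracellular markers from differentiating cultures of the mouse embryonic stem cell line HM1. The 67 samples formed 25 conditions, 17 with 3 replicates and 8 with 2. Neuromesodermal progenitors (NMPs, 3 samples) were collected at day 3 with 0 nM of the Smoothened agonist SAG, which switches on the Shh pathway. Ventral neural progenitors (NPs) were collected at days 4, 5 and 6: p0-1 cells (PAX6+ NKX6.1-) at 0 and 10 nM SAG, p2 cells (NKX6.1+ PAX6+) at 10 and 100 nM, and pMN cells (OLIG2+) and p3 cells (NKX2.2+) at 100 and 500 nM. Pooled over SAG concentration, day 4 had 6 p0-1, 6 p2, 6 pMN and 5 p3 samples, day 5 had 6, 6, 5 and 5, and day 6 had 5, 6, 4 and 4. Every culture received bFGF and the porcupine inhibitor LGK at first, then bFGF, CHIR99021, SB-431542 and DMH1 (an inhibitor of BMP receptors) from day 2 to day 3. NP cultures received retinoic acid from day 3 on. By this schedule NMPs were collected as the DMH1 step ended, and NPs after DMH1 was replaced by retinoic acid. Between NMPs and NPs, cell type, day and these additives therefore cannot be told apart. No group was cultured without prior BMP receptor inhibition, no BMP is listed among the additives, and every sample came from a single cell line. The study describes replicates as separate differentiations of this line.

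Samples held 9298160 to 29985325 reads in elements (median 20254011), of which the 99 members took 0.114% to 0.150%. Values are normalized read counts per element, and a difference was called when limma's test gave a Benjamini-Hochberg adjusted p below 0.01, over all elements that averaged more than 100 normalized counts, and the group means differed by more than 2-fold. Over all elements, 3 libraries correlated below 0.95 with the rest of their cell type and day: p2 day 6 100 nM replicate 3 (r = 0.927), p0-1 day 4 10 nM replicate 3 (r = 0.936) and p0-1 day 6 0 nM replicate 3 (r = 0.946). Without them the number of members called went from 11 to 15 between NMP and p0-1 day 4, from 9 to 10 between p2 day 4 and day 6, from 8 to 9 between p2 and p3 at day 6, from 2 to 1 between p0-1 and p2 at day 6, and was 3 between p0-1 and pMN at day 6 both with and without them, with Bmp7 -19.0 kb in place of Bambi +314 kb. Of the 51 called member differences in comparisons with these libraries, 47 remained called and 4, all at Bambi +314 kb, fell below the filter on the mean. Of the cell type markers, Foxa2, which is expressed in the floor plate and early p3 domain, had a mean promoter count of 1662 in p3 at day 6, of 261 to 306 in the other NPs and of 1494 in NMPs. Nkx2-9, the other p3 marker that could be read, had 1914 in p3 and 2091 in pMN at day 6. The Pax6 promoters summed to 1699 to 2223 in p3 and to 3794 or more in the other NPs on that day. Of the NMP markers, the brachyury gene T had 1175 in NMPs and at most 276 in NPs, while Tbx6 had 778 in NMPs and 522 to 857 in NPs. Foxa1, also expressed in the floor plate, had a mean promoter count of 809 in p3 at day 6 and of 527 to 569 in the other NPs, and its part in the p3 results was not tested. Nkx2-2, Olig2 and the neuron markers Tubb3, Elavl3 and Stmn2 had no element of the promoter class, so these markers could not be read.

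The central 300 bases of 6 elements that the results turn on are printed 5' to 3' on the plus strand of GRCm38 (mm10), with matches to searched motifs in capitals. Smad6 +56.2 kb (chr9:63965717-63966016) lies in intron 3 of Smad6 and had the largest rise from NMPs to NPs among members that passed the filter. Bmp7 +4.9 kb (chr2:172935308-172935607) lies in intron 1 of Bmp7 and was highest in p3 at day 6. Id1 -18.2 kb (chr2:152717871-152718170) and Id1 +3.3 kb (chr2:152739430-152739729) are intergenic and moved in opposite directions with time. Id4 -102 kb (chr13:48158937-48159236) and Id4 -99.6 kb (chr13:48161342-48161641) lie in intron 1 of A330033J07Rik and were lower in p3 than in p2 and pMN at day 6.
Smad6 +56.2 kb: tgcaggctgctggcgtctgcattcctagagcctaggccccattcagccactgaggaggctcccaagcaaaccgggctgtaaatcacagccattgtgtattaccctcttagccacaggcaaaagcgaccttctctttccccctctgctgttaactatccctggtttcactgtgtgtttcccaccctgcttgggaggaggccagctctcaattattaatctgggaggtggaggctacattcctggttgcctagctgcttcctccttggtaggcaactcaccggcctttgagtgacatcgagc
Bmp7 +4.9 kb: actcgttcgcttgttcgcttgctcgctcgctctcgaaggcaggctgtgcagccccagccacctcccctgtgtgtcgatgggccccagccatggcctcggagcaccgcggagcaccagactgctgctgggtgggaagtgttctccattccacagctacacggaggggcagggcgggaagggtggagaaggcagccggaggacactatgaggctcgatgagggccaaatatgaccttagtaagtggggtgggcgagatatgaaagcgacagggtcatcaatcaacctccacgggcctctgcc
Id1 -18.2 kb: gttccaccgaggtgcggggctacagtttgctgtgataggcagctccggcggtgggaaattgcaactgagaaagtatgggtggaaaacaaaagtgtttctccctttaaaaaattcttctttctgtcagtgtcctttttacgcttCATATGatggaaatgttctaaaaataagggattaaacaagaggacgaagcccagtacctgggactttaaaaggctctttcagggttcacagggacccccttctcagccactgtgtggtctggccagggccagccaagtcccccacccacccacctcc
Id1 +3.3 kb: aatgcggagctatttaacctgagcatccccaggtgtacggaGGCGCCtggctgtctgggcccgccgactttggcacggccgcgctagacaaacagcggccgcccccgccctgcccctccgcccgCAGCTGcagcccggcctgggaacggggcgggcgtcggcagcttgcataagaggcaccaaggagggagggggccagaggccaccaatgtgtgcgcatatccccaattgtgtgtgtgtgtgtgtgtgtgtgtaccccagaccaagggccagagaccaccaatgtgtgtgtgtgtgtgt
Id4 -102 kb: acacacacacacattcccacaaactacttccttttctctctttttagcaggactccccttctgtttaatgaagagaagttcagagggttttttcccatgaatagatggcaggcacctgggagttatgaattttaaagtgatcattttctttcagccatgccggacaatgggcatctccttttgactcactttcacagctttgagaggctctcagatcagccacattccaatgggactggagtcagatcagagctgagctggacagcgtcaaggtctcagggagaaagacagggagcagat
Id4 -99.6 kb: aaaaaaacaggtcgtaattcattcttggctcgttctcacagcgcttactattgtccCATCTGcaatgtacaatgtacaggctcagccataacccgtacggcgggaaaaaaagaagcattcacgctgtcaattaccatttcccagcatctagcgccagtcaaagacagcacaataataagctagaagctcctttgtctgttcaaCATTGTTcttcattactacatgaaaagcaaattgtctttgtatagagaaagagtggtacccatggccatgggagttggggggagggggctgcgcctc

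The capitals mark an E-box, CATATG, in Id1 -18.2 kb. In Id1 +3.3 kb they mark the SMAD sequence GGCGCC and, further along the window, the E-box sequence CAGCTG. In Id4 -99.6 kb they mark the E-box sequence CATCTG and, further along the window, the SOX sequence CATTGTT. Smad6 +56.2 kb, Bmp7 +4.9 kb and Id4 -102 kb held none of the 10 motifs searched in their central 300 bases. GGCGCC, a GC-rich SMAD-binding sequence, was present in 10 of the 99 members (10.1%) and in 5.33% of all elements. These 10 were Id1 +3.3 kb, 2 Id4 elements at -89.3 and -23.2 kb, 3 Id3 elements at -8.6, -3.2 and +0.3 kb, 3 Smad6 elements at +112, +94.1 and +0.2 kb, and Bmp7 +114 kb. The palindromic SMAD sequence GTCTAGAC was in 1 member (1.01%, against 0.280%). The E-box CAGCTG was in 17 members (17.2%, against 21.1% of all elements). The E-box CATCTG was in 19 (19.2%, against 25.7%). The E-box CATATG was in 4 (4.04%, against 5.22%). The FOX sequence TGTTTAC was in 3 members (3.03%, against 4.96%), the SOX sequence CATTGTT in 3 (3.03%, against 7.60%), the GLI sequence TGGGTGGTC in 1 (1.01%, against 0.392%), the homeodomain sequence TAATTA in 10 (10.1%, against 7.85%) and the nuclear receptor sequence TGACCTTTG in 0 (against 0.778%). Both strands were searched, and no searched sequence contains another. The median GC content of this window was 52% in members and 48% over all elements.

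Of the 99 members, 58 were intergenic, 29 intronic, 8 exonic, 2 in the promoter class (Bambi and Id2) and 2 at a transcription end, and 77 lay within 100 kb of the start site of their gene. Their median level was 48.5 normalized counts against 41.4 over all elements, and 37 of them (37.4%) had a mean above 100 against 28.4% of all elements. In counts per kb of element, the 9 elements nearest a start site ranged from 124 to 1027 (median 513), while the other 90 ranged from 10.2 to 1557 (median 43.6). The start-site element had the highest count per kb of its locus at 4 of 9 genes, and in the plot of level against distance other elements reach or exceed it at the other loci.

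**Figure D1:**
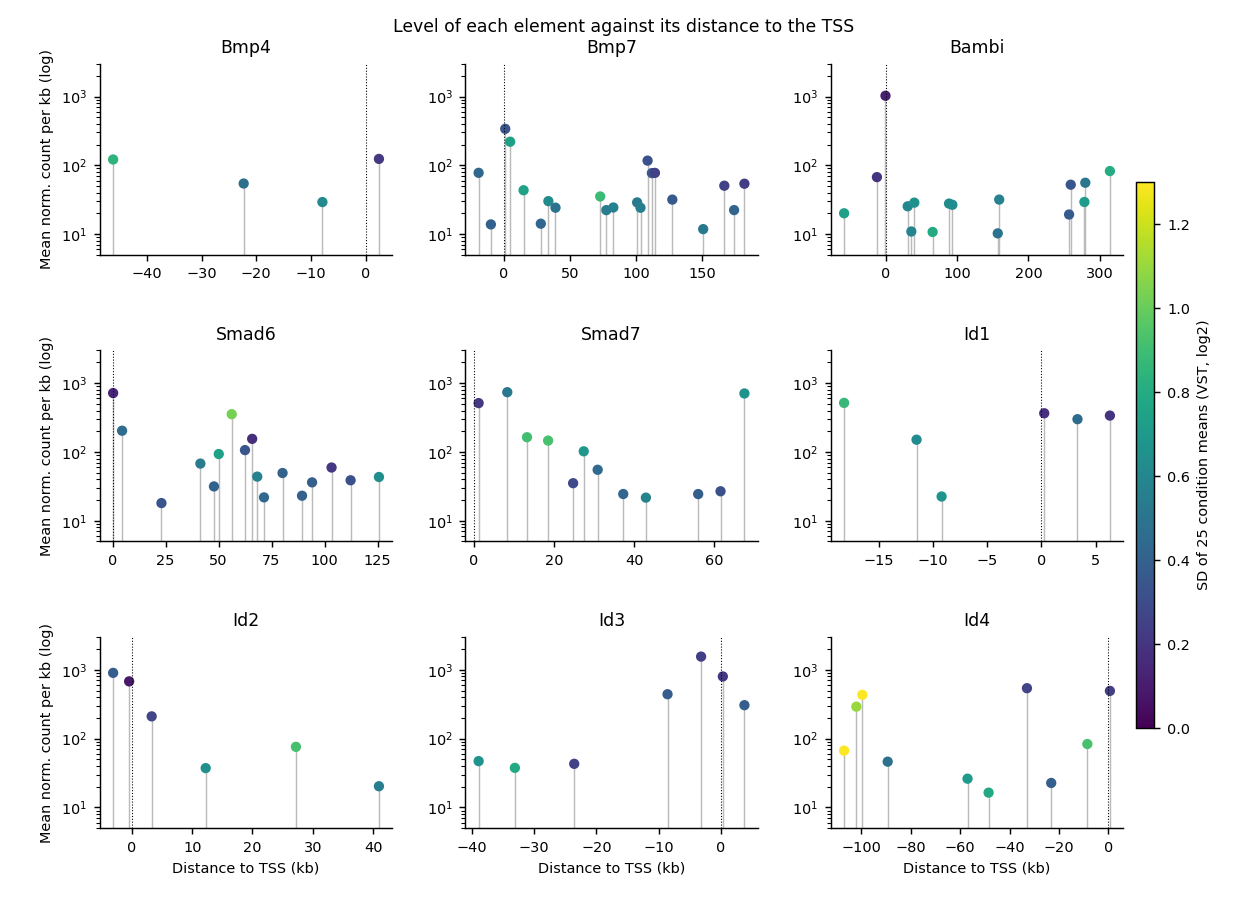
Mean normalized count per kb over all samples (log scale) against distance from the start site of the gene (kb) for the 99 elements, in 9 panels by gene, with colour giving the SD of the 25 condition means on the deposited log2 scale. The elements nearest the start sites have an SD of 0.09 to 0.34 and are the highest at 4 of 9 genes, and the elements that vary most lie away from the start sites.

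The start-site elements of the 9 genes varied little between conditions. On the deposited log2 scale, the SD of the 25 condition means had a median of 0.21 (0.09 to 0.34) over these 9 elements, against 0.20 over the 8271 elements of the promoter class. The other 90 members had a median of 0.52, against 0.58 over the 103367 elements outside that class. Id2 -0.5 kb was the steadiest member, with cell type and day means of 1079.7 to 1366 normalized counts. Smad6 +0.2 kb ranged from 1899 to 2467, Bambi -0.3 kb from 1401 to 1768 and Id1 +0.3 kb from 1087 to 1551. Bmp7 +1.1 kb and Bmp4 +2.4 kb were the 2 start-site elements that passed the test in any comparison, and both were highest in NMPs.

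**Figure D2:**
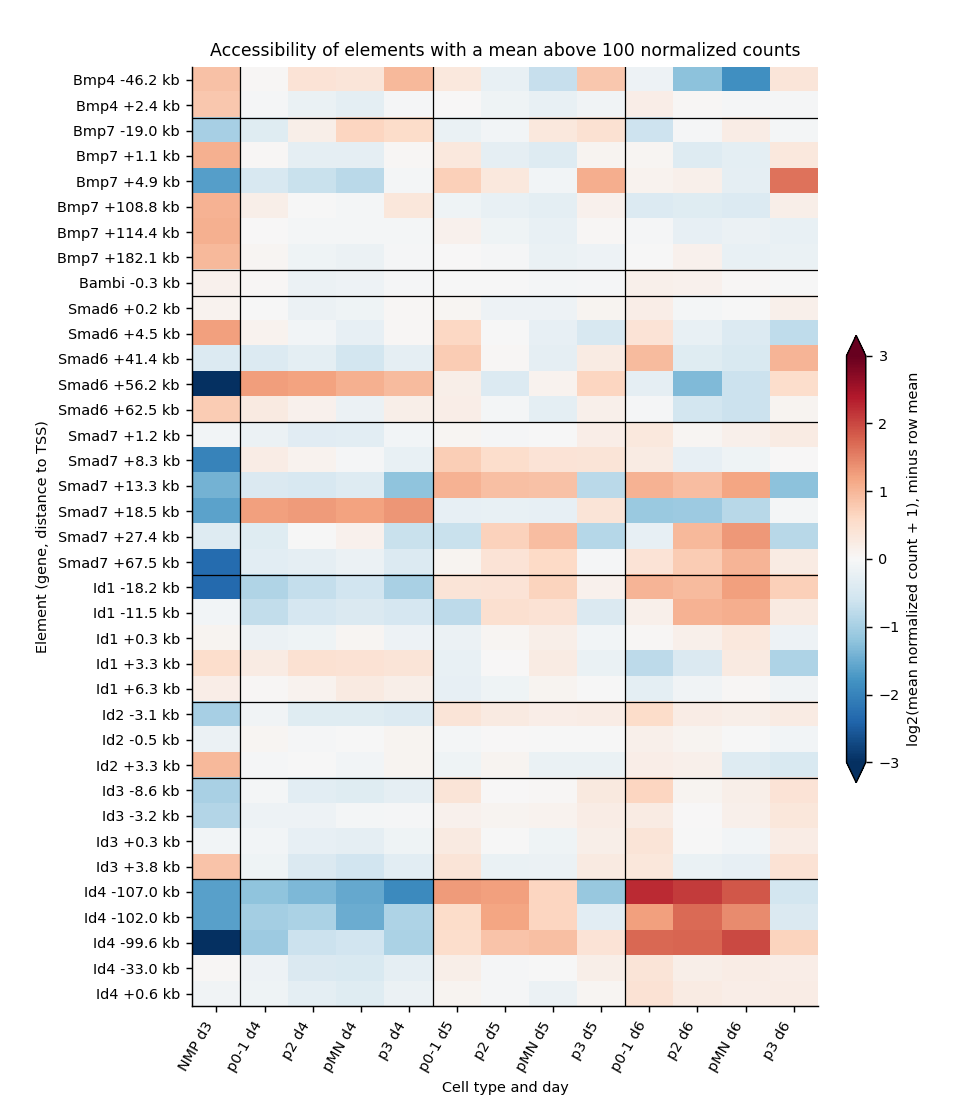
Accessibility of the 37 members that average more than 100 normalized counts (rows, by gene and distance in kb) in the 13 combinations of cell type and day (columns), as log2(mean normalized count + 1) minus the mean of the row, with the colour scale ending at -3 and 3. Rows of distal elements of Smad6, Smad7, Id1 and Id4 change from NMPs through day 6, and the start-site rows are paler except in NMPs at Bmp7 +1.1 kb and Bmp4 +2.4 kb.

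The first comparison addressed what changed between NMPs at day 3 and NPs at day 4. Of 36 members tested, 18 were called against at least 1 of the 4 NP types, where 54.7% of all tested elements were called. NPs were higher at 7 members (25% of all elements were) and lower at 11 (29.7% of all elements were). The median log2 ratio of NP over NMP was -0.07 to -0.23 over members in the 4 comparisons and -0.40 to -0.51 over all tested elements, so counts over all elements were shifted towards NMPs. Among members tested, the largest rises were at inhibitory SMAD genes, and the largest falls were at Id3, Id2 and Bmp7. Id3 -38.9 kb, Id2 +12.2 kb and, outside p3, Bmp7 +73.0 kb had day 4 means below 100. Their high NMP values alone thus made them eligible for testing. Smad6 +56.2 kb and Smad7 +18.5 kb had NMP means below 100 and were eligible through the NPs alone. This ranking therefore depends on the filter.

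Smad6 +56.2 kb (chr9:63965375-63966358) was low in NMPs, with 36.4, 12.1 and 26.9 normalized counts. At day 4 it had 475, 596 and 843 (lowest, median, highest) in p0-1, 464, 569 and 764 in p2, 340.2, 536 and 715 in pMN, and 369, 502, 617, 394 and 632 in p3. Every NP sample was far above every NMP sample. The rise was 20.0- to 24.7-fold, a log2 ratio of 4.32 to 4.62 with standard errors of 0.21 to 0.24 on the deposited scale, and the largest of the 4 limma adjusted p-values was 3.54e-09 (p0-1). A second Smad6 element behaved in the opposite way: Smad6 +4.5 kb had 1338 in NMPs and 474 to 612 in the NPs, a log2 ratio of -1.13 to -1.50 (limma adjusted p of 0.000137 or less). In p0-1 this fall was -0.97 without replicate 1 and had an adjusted p of 0.0132 without replicate 2.

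At Smad7, which encodes the inhibitory SMAD shared with the TGF-beta branch, 3 of 5 tested elements rose and none of the 5 fell. Smad7 +18.5 kb, in intron 3, had 88.5, 51.3 and 79.7 normalized counts in NMPs. The NP means at day 4 were 520.4 to 568, with single samples from 342 to 704, so no NP sample overlapped the NMPs, and the log2 ratios were 2.83 to 2.96 (limma adjusted p of 5.83e-08 or less). Smad7 +8.3 kb in intron 2 went from 149, 113 and 102 in NMPs to means of 419 to 572 (log2 ratio 1.78 to 2.24). Smad7 +67.5 kb, which lies in the last exon of the neighbouring gene Ctif, went from 190.3, 151 and 196 to means of 675 to 796 (log2 ratio 1.91 to 2.15). All 12 of these Smad7 differences were called, and the comparisons share the NMP samples. Counted by element, 3 of 5 were called at Smad7, where 54.7% of all tested elements were called against at least 1 NP type.

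Id genes moved in different directions. Id1 -18.2 kb had 78.8, 62.0 and 64.6 normalized counts in NMPs and means of 178 to 235 at day 4, a log2 ratio of 1.38 to 1.78 (limma adjusted p of 6.78e-06 or less). Id3 -38.9 kb had 505, 492 and 669.9 in NMPs and means of 63.1 to 90.7 at day 4, a log2 ratio of -2.62 to -3.14 (limma adjusted p of 3.80e-07 or less). In both elements the NMP samples lay apart from every NP sample. In such bulk sorted samples, fewer cells with an open element and less open chromatin per cell cannot be told apart.

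Id2 +12.2 kb had 188, 260.3 and 162 normalized counts in NMPs and 34.3, 55.0, 35.5, 40.5 and 44.2 in p3 at day 4, a log2 ratio of -2.28 (SE 0.22, limma adjusted p = 3.55e-07). It passed the filter on the mean in the p3 comparison alone, and its means in p0-1, p2 and pMN were 42.6, 38.1 and 46.3. Id3 +3.8 kb fell from 1074 to 399 to 478 in p2, pMN and p3 (log2 ratio -1.17 to -1.43). Id2 +3.3 kb fell from 371.5 to 179 in pMN (log2 ratio -1.05, -0.93 without replicate 1). None of the 3 Id4 elements tested here was called, and Id4 -99.6 kb, at 1.21, 1.35 and 3.23 normalized counts in NMPs, was below the filter.

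The ligand genes were more accessible in NMPs at most elements called. Bmp7, which is expressed by the roof plate and the notochord among other tissues, had 7 elements tested, of which 5 fell and 2 rose. Over all tested elements, 29.7% were called lower and 25% higher in at least 1 NP type, and counts were shifted towards NMPs. Bmp7 +73.0 kb, at the transcription end of the gene, had 344, 298 and 489 normalized counts in NMPs. Its day 4 means were 76.4 to 81.8 in p0-1, p2 and pMN (log2 ratio -2.20 to -2.30) and 140.3 in p3 (log2 ratio -1.43), and NP samples did not reach the NMP values. The start-site element Bmp7 +1.1 kb fell from 2379, 2279.5 and 2631 to means of 964 to 1200.0 (log2 ratio -1.02 to -1.33), and its p0-1 and p3 values without replicate 1 were -0.87 and -0.97. Bmp7 +109 kb, +114 kb and +182 kb fell from 269.5, 258 and 208 to 124 to 129, 118 to 124 and 94.2 to 103 where called. The falls of +109 kb, and those of +182 kb in p2 and p3, were -0.87 to -0.95 without replicate 1. The fall of +182 kb in p3 was -0.99 without replicate 3 and had an adjusted p of 0.0195 after centring each sample.

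The 2 risers were upstream of Bmp7 and in its first intron. Bmp7 -19.0 kb went from 65.5, 63.4 and 95.8 normalized counts in NMPs to means of 171 in p2, 223 in p3 and 236 in pMN (log2 ratio 1.19 to 1.66), while p0-1 had 117 and was not called. Bmp7 +4.9 kb went from 120.0, 89.0 and 124 to 253 in p0-1 (log2 ratio 1.19) and 338 in p3 (log2 ratio 1.61, SE 0.15, limma adjusted p = 7.87e-08). At Bmp4, the start-site element at +2.4 kb had 1089, 1206 and 1027 in NMPs and means of 547 in p2 and 512 in pMN (log2 ratio -1.02 and -1.11), the first being -0.94 without replicate 1. Its means in p0-1 and p3 were both 615 and were not called. The dorsal and neural crest genes with a promoter element (Msx1 and Lmx1a, 2 of 5) summed to 2507 to 2782 in the NMP samples and to 907 to 2409 in NP samples, and their part in the results was not tested.

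**Figure D3:**
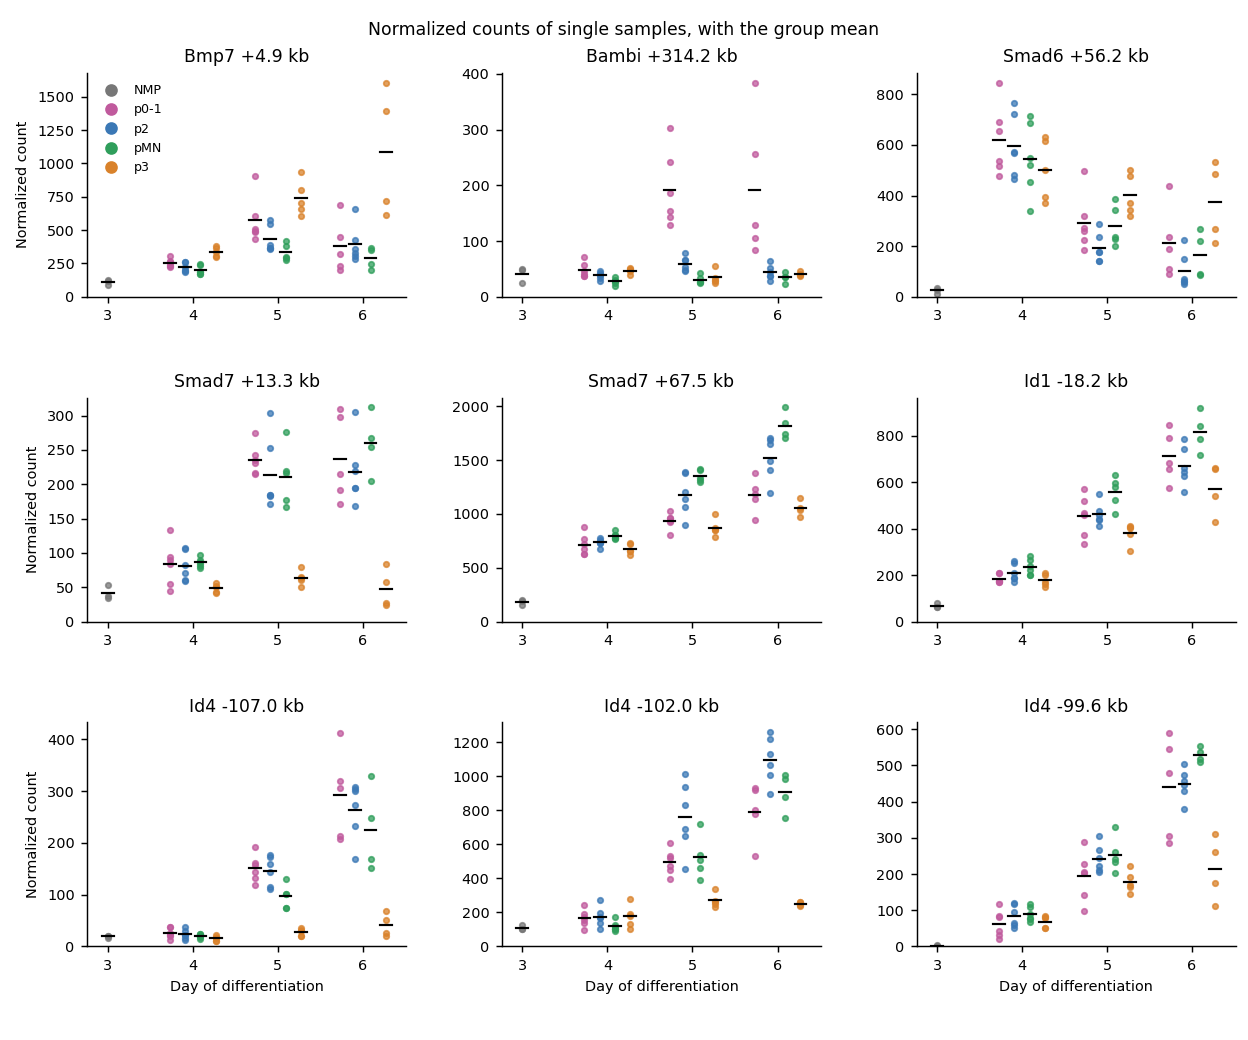
Normalized counts of 9 elements in every sample (points) and the mean of each cell type and day (horizontal lines), with cell types in colour and days along the horizontal axis. Smad6 +56.2 kb is highest at day 4, Id1 -18.2 kb rises to day 6 in all 4 NP types, and at day 6 Id4 -107, -102 and -99.6 kb and Smad7 +13.3 kb are lower in p3 (means of 41.2, 251, 214 and 48.0) than in the other NPs.

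The second comparison followed each NP type from day 4 to day 6. Of 40 members tested, 14 were called in at least 1 cell type, where 38.8% of all tested elements were called. Day 6 was higher for 11 members (27.2% of all elements) and lower for 3 (11.7% of all elements). The called members comprised 3 of 5 tested at Id1, 3 of 5 at Id4, 2 of 5 at Smad6, 4 of 7 at Smad7, 1 of 2 at Bambi and 1 of 7 at Bmp7, while none was called at Id2, Id3 or Bmp4. The median log2 ratio of day 6 over day 4 was 0.16 to 0.26 over members in the 4 cell types and 0.18 to 0.27 over all tested elements.

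The Id4 elements at -107, -102 and -99.6 kb (Id4 encodes an Id protein expressed in neural progenitors) were the tested members with the largest gains, while Id4 -33.0 and +0.6 kb were not called. Id4 -107 kb (chr13:48153337-48154912) had day 4 means of 25.9 in p0-1, 23.3 in p2 and 20.5 in pMN, and day 6 means of 292, 264 and 224, an 11.0- to 11.3-fold rise (log2 ratio 3.45 to 3.50, limma adjusted p of 2.71e-07 or less). Its high day 6 values alone thus made it eligible for testing. In p3 it had 15.7 at day 4 and 69.3, 25.4, 50.8 and 19.4 at day 6, below the filter on the mean. Id4 -102 kb rose from 167, 174 and 119 to 793, 1097 and 906 (log2 ratio 2.25, 2.66 and 2.93).

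Id4 -102 kb in p3 had 277, 176, 134, 193 and 101 at day 4 and 264, 244, 259 and 236 at day 6, and the groups overlapped. Id4 -99.6 kb rose in all 4 cell types. Its means went from 62.1 to 441 in p0-1, 84.6 to 448 in p2, 89.5 to 529.6 in pMN and 68.5 to 214 in p3 (log2 ratio 2.83, 2.40, 2.56 and 1.65). The p3 rise had a limma adjusted p of 0.000821, and one of 0.0128 with voom on recovered reads. Without replicate 2 the element fell below the filter on the mean in p3. The day 4 means were below 100 in all 4 cell types, so the day 6 values alone made it eligible for testing.

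Id1 -18.2 kb kept rising in every NP type. Its day 6 values were 657, 576, 792, 849 and 684 in p0-1, 922, 789, 842 and 719 in pMN, 656, 540.1, 662 and 431 in p3, and 559.9, 652 and 787 (lowest, median, highest) in p2. No day 6 sample overlapped the day 4 samples of its cell type, and the log2 ratios were 1.94, 1.80, 1.68 and 1.67 (limma adjusted p of 3.30e-06 or less). Id1 -11.5 kb rose in p2 (201 to 589, log2 ratio 1.55) and pMN (211 to 603, log2 ratio 1.51). Its means of 169.7 and 319 in p0-1 and of 201 and 343 in p3 at days 4 and 6 were not called different.

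Id1 +3.3 kb, on the other side of the gene, went down. It fell in p0-1 from 288 to 139 (log2 ratio -1.05, -0.89 and adjusted p = 0.0164 without replicate 2) and in p3 from 316 to 126 (log2 ratio -1.32, -0.92 and limma adjusted p = 0.0107 without replicate 3). In pMN it had 327 at day 4 and 286, 300.5, 291 and 285 at day 6.

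Smad6 +56.2 kb, which had opened by day 4, fell again. Day 6 values were 238, 437, 112, 89.7 and 191 in p0-1, 51.7, 67.6 and 226 in p2 (lowest, median, highest), 87.9, 219.7, 88.2 and 269.7 in pMN, and 214, 484, 269 and 534 in p3. The log2 ratios were -1.54, -2.52 and -1.71 in p0-1, p2 and pMN (limma adjusted p = 0.00062, 1.38e-06 and 0.000142), and p3 was not called. In p0-1 the adjusted p was 0.019 without replicate 2. Within each of the 8 conditions of day 6, replicate 3 was above replicate 2 at this element.

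Replicate 3 was above replicate 2 in all 8 day 6 conditions at 8 of the 31 elements named here, and replicate 2 was above replicate 3 in all 8 at 2 of them. The 8 were Smad6 +41.4 and +56.2 kb, Smad7 +8.3 and +18.5 kb, Bambi +314 kb, Bmp4 -46.2 kb, and Bmp7 -19.0 and +4.9 kb. The 2 were Id1 -11.5 kb and Id4 +0.6 kb. The part of these replicate differences in the day 6 results was not tested. Both replicate numbers occur in every day 6 condition, but replicate 1 occurs there only in p2 and p0-1. Replicate 3 thus makes up a larger share of the p3 and pMN samples. The 3 elements called higher in p3 at day 6, Bmp7 +4.9 kb, Smad6 +56.2 kb and Smad7 +18.5 kb, are among the 8. Without replicate 1 their log2 ratios of p3 over p2 went from 1.47, 1.86 and 1.04 to 1.29, 1.59 and 0.85. None of these p2 differences was then called.

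Smad7 +18.5 kb also rose and fell. From day 4 means of 520.4 to 568 it came to 103 in p0-1, 105 in p2 and 125 in pMN (log2 ratio -2.36, -2.38 and -2.06) and to 204, 268, 167 and 223 in p3 (log2 ratio -1.40). Other Smad7 elements went up: +13.3 kb rose in p0-1, p2 and pMN from 80.9 to 86.1 at day 4 to 218 to 259.5 at day 6 (log2 ratio 1.43 to 1.59). Smad7 +67.5 kb rose further in p2 to 1523 (log2 ratio 1.05) and in pMN to 1819 (log2 ratio 1.19). Smad7 +27.4 kb, in its last exon, rose in pMN from 138 to 309 (log2 ratio 1.17).

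Bmp7 +4.9 kb rose in p3 from 384, 299.5, 308, 335 and 364 at day 4 to 617, 1395, 716 and 1603 at day 6. The 2 higher day 6 values were the replicate 3 libraries at 100 and 500 nM, and no day 6 value overlapped day 4. The log2 ratio was 1.68 (SE 0.25, limma adjusted p = 0.000218) and was 0.97 without replicate 3. Smad6 +41.4 kb rose in p0-1 from 72.2 to 187 (log2 ratio 1.37, limma adjusted p = 0.00634), with adjusted p of 0.0742 without replicate 2, 0.0238 without replicate 3, 0.0357 after centring each sample and 0.0869 with voom on recovered reads.

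The third comparison set p3 against the other NP types on each day. At day 4, 0 of 34 members were called, where 11.5% of all tested elements were. By limma 17 of the 34 had an unadjusted p below 0.05, and voom on recovered reads called 0. The share of all elements below 0.05 is not given here, so the count of 17 is not read as a result about the members. The log2 ratios ran from -0.81 to 0.93, the latter being Bmp7 -19.0 kb in p3 over p0-1 (117 against 223, limma adjusted p = 0.000418). At day 5, 8 of 39 were called, against 27.1% of all elements: 3 higher in p3 (9.65% of all) and 5 lower (17.5% of all). At day 6, 11 of 39 were called, against 35% of all elements: 3 higher in at least 1 comparison (14.2% of all) and 8 lower (20.9% of all). The median log2 ratio of p3 over the other types at day 6 was -0.17 to -0.01 over members and -0.09 to 0.01 over all tested elements.

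**Figure D4:**
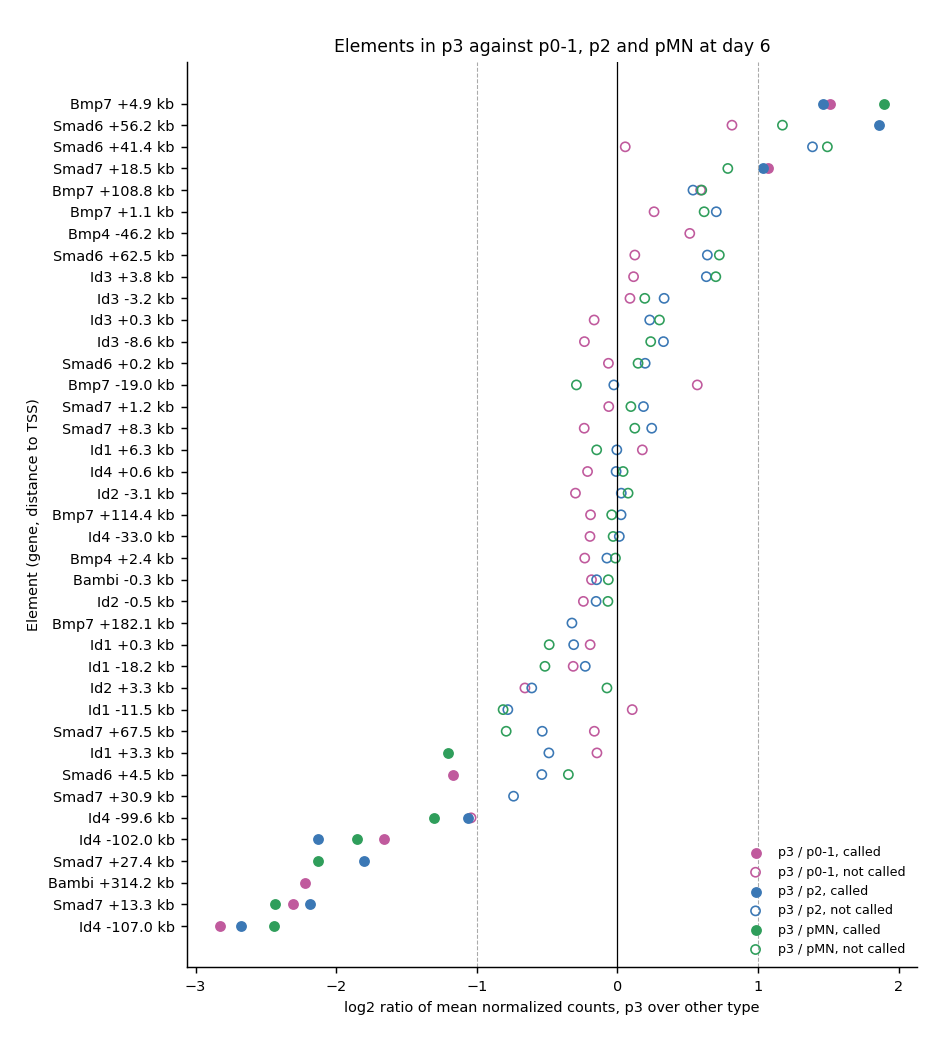
The log2 ratio of mean normalized counts at day 6 in p3 over p0-1, p2 and pMN (points by comparison) for each tested element, with filled points for differences called. Elements of Bmp7, Smad6 and Smad7 lie to the right (3 elements called higher in p3) and elements of Id4, Smad7, Bambi, Id1 and Smad6 to the left (8 called lower).

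The elements lower in p3 at day 6 included 3 of the 5 Id4 elements tested, those at -107, -102 and -99.6 kb. Id4 -33.0 kb had a mean of 506 in p3 and of 501 to 579 in the other NPs. Id4 -102 kb had 264, 244, 259 and 236 in p3, against 533, 918, 802, 779 and 932 in p0-1, 898, 1099 and 1259 (lowest, median, highest) in p2, and 878, 1006, 755 and 986 in pMN. Every p3 sample was below every other NP sample. The log2 ratios were -1.66, -2.13 and -1.85 (limma adjusted p = 8.91e-06, 4.44e-08 and 4.13e-06), and the p2 comparison was called already at day 5 (762 against 271, log2 ratio -1.49).

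Id4 -107 kb had 69.3, 25.4, 50.8 and 19.4 in p3 at day 6, while the lowest sample of the other NPs had 152. It passed the filter on the mean through the other NPs alone. The log2 ratios were -2.82, -2.68 and -2.44 against p0-1, p2 and pMN (limma adjusted p of 0.000567 or less). Id4 -99.6 kb had 310.0, 174, 261 and 113 in p3 against means of 448 in p2 and 529.6 in pMN (log2 ratio -1.06 and -1.30). Without replicate 3 these 2 ratios were -0.64 and -0.91.

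Smad7 +13.3 kb separated p3 at days 5 and 6. At day 6 it had 57.7, 83.4, 26.6 and 24.3 in p3, while the lowest value in another NP sample was 168. The log2 ratios were -2.31, -2.19 and -2.44 against p0-1, p2 and pMN (limma adjusted p = 0.000214, 7.09e-05 and 0.000226), and they were -1.88, -1.73 and -1.72 at day 5. Smad7 +27.4 kb had 64.3, 55.9, 97.0 and 65.1 in p3 at day 6, 126, 254 and 325 (lowest, median, highest) in p2 and 318, 317, 291 and 311 in pMN (log2 ratio -1.80 and -2.13), and p0-1 with a mean of 106 was near p3. Against p2 and pMN it too passed the filter through the other group alone.

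Smad7 +18.5 kb went the other way and was higher in p3 at day 6, with 216 against 103 in p0-1 and 105 in p2 (log2 ratio 1.07 and 1.04). These ratios were 0.98 and 0.85 without replicate 1, and their limma adjusted p-values were 0.0399 and 0.024 without replicate 2. Different elements of a single gene were therefore higher and lower in p3.

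Smad6 also had an element called higher and an element called lower in p3, but not against the same cell type. Smad6 +56.2 kb was higher in p3 than in p2, with 403 against 194 at day 5 (log2 ratio 1.05, 0.98 without replicate 1) and 375 against 103 at day 6 (log2 ratio 1.86, limma adjusted p = 0.00209). The day 6 groups overlapped, p2 reaching 226 and p3 beginning at 214, and the adjusted p was 0.0134 without replicate 1 and 0.014 without replicate 2. Smad6 +4.5 kb was lower in p3 than in p0-1, with 406 against 875 at day 5 (log2 ratio -1.11) and 335 against 754 at day 6 (log2 ratio -1.17). The first was -0.96 and the second had an adjusted p of 0.0137 without replicate 2.

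Among ligand elements, Bmp7 +4.9 kb was higher in p3. At day 5 p3 had 701, 661, 803, 607 and 933, all above the 299, 292, 383, 274 and 417 of pMN (log2 ratio 1.15, limma adjusted p = 1.21e-05). At day 6 the p3 mean of 1083 stood against 379 in p0-1, 392 in p2 and 291 in pMN (log2 ratio 1.52, 1.47 and 1.90, limma adjusted p = 0.00827, 0.00194 and 0.00133). Single p0-1 and p2 samples reached 686 and 657 and overlapped p3, whereas pMN, at up to 368, did not. Without replicate 1 the p0-1 and p2 ratios had adjusted p of 0.0185 and 0.0135, and without replicate 2 the p0-1 ratio had 0.025.

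Bmp4 -46.2 kb was higher in p3 at day 5, with 172, 141, 237, 125 and 267 against 61.8, 44.1, 79.9, 41.6 and 105 in pMN (log2 ratio 1.50, limma adjusted p = 0.000428). Against p2, with 61.0, 75.6 and 139.5 (lowest, median, highest), the log2 ratio was 1.04, and it was 0.94 without replicate 1 and had an adjusted p of 0.0514 when all 67 samples shared a fit. At day 6 its p3 values ran from 42.9 in a replicate 2 library to 246 in a replicate 3 library, and the element was not called.

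Id1 +3.3 kb was lower in p3 than in pMN at day 6, with 148, 116, 148 and 92.2 against 286, 300.5, 291 and 285 (log2 ratio -1.20, limma adjusted p = 0.000197), and the ratio was -0.96 without replicate 3. Bambi +314 kb was lower in p3 than in p0-1 at both days, and it is described with p0-1.

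Among p0-1, p2 and pMN, 1 of 33 members was called at day 4, where 3.77% of all tested elements were. It was Bmp7 -19.0 kb, higher in pMN (182, 237 and 291, lowest, median, highest) than in p0-1 (87.4, 124 and 134), with a log2 ratio of 1.01 (SE 0.14, limma adjusted p = 0.000311) that was 0.97 without replicate 2. At day 5, 4 of 39 were called against 11.7% of all elements, with 2 higher in the more ventral cell type (7.17% of all) and 2 lower (4.52% of all). At day 6, 3 of 38 were called against 14% of all elements, with 2 higher (10.5% of all) and 1 lower (3.78% of all). In all these comparisons the difference was between p0-1 and p2 or pMN, and none of the members tested between p2 and pMN was called on any day.

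Bambi +314 kb was higher in p0-1 than in the other NPs at days 5 and 6. It passed the filter on the mean only in comparisons that included p0-1 of day 5 or day 6. Its high p0-1 values alone thus made it eligible for testing. At day 5 it had 128, 169.6 and 302 (lowest, median, highest) in p0-1 and at most 78.5 in any p2, pMN or p3 sample (means 59.6, 30.7 and 34.9). The log2 ratios of p2, pMN and p3 over p0-1 were -1.69, -2.65 and -2.46 (limma adjusted p = 0.000351, 2.20e-06 and 2.96e-06), and the first had an adjusted p of 0.0211 and 0.0232 without replicate 1 or 2. At day 6 p0-1 had 255 and 384 at 0 nM SAG and 83.7, 105 and 129 at 10 nM, against at most 63.7 in the other NPs.

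The day 6 log2 ratios at Bambi +314 kb were -2.13, -2.47 and -2.22, with limma adjusted p = 0.00508, 0.00398 and 0.00359. Without replicate 2 they were -2.07, -2.33 and -2.20 with adjusted p of 0.151, 0.101 and 0.0869, and with voom on recovered reads the adjusted p were 0.0391, 0.0545 and 0.0825. Without p0-1 day 6 0 nM replicate 3 and the 2 other libraries that stand apart, its mean over the samples compared was 85.7 to 92.1 and it was not tested in these 3 comparisons or in p0-1 from day 4 to day 6. Its rise in p0-1 from day 4 (48.4 to 191, log2 ratio 1.98, limma adjusted p = 0.00147) had an adjusted p of 0.0384 without replicate 2 and 0.0544 with voom. The element lies far from Bambi in an intergenic region, and nearest-gene annotation does not show that it acts on Bambi.

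Id1 -11.5 kb was higher in p2 and pMN than in p0-1 at day 5. It had 124, 164 and 195 in p0-1, 205, 379 and 567 in p2 (lowest, median, highest) and 447, 447, 305, 427 and 297 in pMN, without overlap. The log2 ratios were 1.28 and 1.23 (limma adjusted p = 0.00208 and 3.23e-05), and the first had an adjusted p of 0.0381 without replicate 1 and 0.0649 without replicate 2. Smad6 +41.4 kb was higher in p0-1 than in pMN at day 5 (162 against 79.5, log2 ratio -1.03), with an adjusted p of 0.0264 without replicate 2 and a ratio of -0.87 without replicate 3.

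Smad7 +27.4 kb was likewise lowest in p0-1 and p3. At day 5 it had 57.0, 82.8 and 92.0 in p0-1 against 118, 192 and 305 in p2 and 253, 223, 262, 209.9 and 256 in pMN (log2 ratio 1.36 and 1.61, limma adjusted p = 0.000897 and 7.38e-07). At day 6 the log2 ratios over p0-1 were 1.21 in p2 and 1.54 in pMN, and they were 1.03 and 1.35 with adjusted p of 0.207 and 0.0195 without replicate 2. Id1 +3.3 kb was higher in pMN than in p0-1 at day 6 (290.5 against 139, log2 ratio 1.06), with an adjusted p of 0.0214 without replicate 2.

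The fourth comparison asked whether SAG concentration changed accessibility within a cell type at day 5. Of 41 members tested, 0 were called, where 0.00251% of all tested elements were called, that is 1 of 39881. By limma 10 of the 41 members had an unadjusted p below 0.05, voom on recovered reads called 0, and log2 ratios of the higher over the lower concentration ran from -0.78 to 0.70. Since the share of all elements below 0.05 is not given here, the count of 10 is likewise not read as a result. The lowest adjusted p was 0.112, at Bambi +314 kb in p0-1 between 0 and 10 nM (log2 ratio -0.78).

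The last comparison tested whether the change from day 4 to day 6 differed between p3 and pMN, which were sorted from the same SAG concentrations. It was called for 4 of 34 members, where 10.6% of all tested elements were called, and in all 4 the change in p3 was the lower (6.10% of all elements). Id4 -102 kb went from 119 to 906 in pMN and from 176 to 251 in p3, a difference in log2 change of -2.42 (SE 0.28, limma adjusted p = 1.18e-05). Smad7 +13.3 kb went from 86.1 to 259.5 in pMN and from 48.8 to 48.0 in p3, a difference of -1.62 (SE 0.31, limma adjusted p = 0.00074). Smad7 +27.4 kb, with 138 to 309 and 78.4 to 70.6, differed by -1.32 (SE 0.21, limma adjusted p = 0.000243), and Id1 +3.3 kb, with 327 to 290.5 and 316 to 126, by -1.15 (SE 0.24, limma adjusted p = 0.00226). Without replicate 2 the adjusted p was 0.0116 for Smad7 +13.3 kb and 0.0123 for Id1 +3.3 kb, and without replicate 3 it was 0.025 for Smad7 +27.4 kb and 0.0901 for Id1 +3.3 kb.

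Other genes of the pathway were described over 31 genes with 352 elements: ligands, receptors, SMAD transducers, extracellular antagonists and other regulators. From NMPs to day 4, 70 of 108 tested elements were called (54.7% of all elements), 40 up (25% of all) and 30 down (29.7% of all). From day 4 to day 6, 59 of 125 were called (38.8% of all), 40 up (27.2% of all) and 19 down (11.7% of all). Against the other NPs, p3 had 20 of 104 called at day 4, all 20 lower. Over all 31090 elements tested there, 11.5% were called, with 1229 higher and 2351 lower in p3. At day 5 p3 had 40 of 110 called (27.1% of all), 3 higher (9.65% of all) and 37 lower (17.5% of all). At day 6 p3 had 55 of 118 called (35% of all), 9 higher (14.2% of all) and 46 lower (20.9% of all). Among p0-1, p2 and pMN, 8 of 106, 11 of 112 and 23 of 118 were called at days 4, 5 and 6, against 3.77%, 11.7% and 14% of all elements. With SAG 0 of 130 were called (0.00251% of all), and in the change between p3 and pMN 8 of 99 (10.6% of all).

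By role, the 6 receptor genes had 20 of 32 tested elements called at day 6 in p3 against the rest (16 lower), the 4 transducer genes 7 of 12 (6 lower), the 8 antagonist genes 8 of 19 (6 lower), the 5 other ligand genes 3 of 13 (3 lower) and the 8 other regulators 17 of 42 (15 lower), where 35% of all tested elements were called and 20.9% were lower. Acvr1, which encodes a type I receptor for BMPs, held both the largest gain and the largest loss in p3 over p0-1 at day 6, at +4.7 kb (log2 ratio 4.93, limma adjusted p = 1.56e-07) and at -62.3 kb (log2 ratio -5.41, limma adjusted p = 9.77e-07). From NMPs to day 4 the extremes were Bmp2 -151 kb (log2 ratio 7.66 in p0-1), annotated to another BMP ligand gene, and Fst +7.9 kb (log2 ratio -5.43 in pMN), annotated to the gene of the extracellular antagonist follistatin. From day 4 to day 6 they were Neo1 -127 kb (log2 ratio 6.26 in p0-1) and Smad1 -74.1 kb (log2 ratio -5.96 in p2), the latter annotated to a gene for a BMP-regulated SMAD. Ratios of this size can rest on a very low mean in 1 group, and the group means are not given here. Nearest-gene annotation does not show that these elements act on the genes named.

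Elements elsewhere in the genome had closely similar profiles over the 25 conditions, given here as a description, since the conditions share libraries, days and cell types. Id1 -18.2 kb was most like elements annotated to Npas3, Trmu and Ndufb4c (Pearson's r of 0.99 each). Id4 -99.6 kb was most like elements of Vtcn1, Mir204 and Gm51268 (r of 0.99, 0.98 and 0.98), and Smad6 +56.2 kb like elements of Cstf2t, Ankrd6 and Mir3473f (r of 0.98, 0.95 and 0.95). Over the 99 members, the condition with the highest mean was NMP for 40 (40.4%, against 31.9% of all elements), and NMP was the lowest for 24 (24.2%, against 32.3%). In all, 45 members passed the filter in at least 1 comparison, 28 were called in at least 1, and 54 were never tested.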

How the data were processed

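HM1 cells were sorted after fixation and transposition, and the authors processed the reads with the nf-core/atacseq pipeline on mm10: peaks were called with MACS, merged into consensus elements, counted with featureCounts and annotated to the nearest gene with HOMER. The authors deposited log2 values, a DESeq2 variance-stabilising transformation (VST) of counts scaled by size factors, which compresses differences between low counts. Here the transformation was inverted to normalized counts and to whole reads: 100% of the values below 1000 reads came out whole within 1e-06. Depth was 9298160 to 29985325 reads in elements, and low counts carry the larger relative error.

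Groups were tested with limma 3.58.1 (R 4.3.3) on the deposited VST values with a variance trend, two-sided, on the samples of the groups compared, pooled over SAG concentration except in the SAG comparison. Elements needed a mean above 100 normalized counts over those samples, p-values were Benjamini-Hochberg adjusted over all of them, and calls needed an adjusted p below 0.01 and a ratio of means above 2-fold. Fold changes and log2 ratios are of mean normalized counts, and standard errors are of the VST difference. In the pooled fits, samples with the same replicate number at both SAG concentrations were counted as separate samples. At day 6 all p3 and pMN samples came from replicates 2 and 3. Where samples with the same number are alike, these standard errors and limma p-values can be too small.

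The 9 genes, the marker and pathway lists and the rules were chosen with earlier results of these data known. Named elements were, for each gene, that nearest the start site and that with the widest range of condition means, and, in each comparison, the 3 called members with the largest increase and decrease. Further called members are named from the same tests. Titles gave replicate numbers. They differed from the description numbers in 15 samples. Deviations of samples with the same title number correlated within day 5 (median r of 0.57, lowest 0.33) and day 6 (0.56, lowest 0.17), so the numbers pair samples there. Within day 4 the median was 0.62, against -0.29 for samples with other numbers. The lowest there was -0.46, so pairing within day 4 was not shown for every sample. Across days the medians were lower, at 0.15 for day 3 with day 4 and 0.24 for day 4 with day 6. Sequences and motif positions were read from GRCm38 with pysam 0.24.0. One marker gene and the sum of its list are not reported here. The scripts were tested on simulated data. Alternatives were a log2 ratio above 2, a threshold on the VST difference, no filter, no trend, 1 fit of all 67 samples, centring each sample on its median, voom on recovered reads, replicate blocks, members within 100 kb, days 4 to 6 with day as covariate for SAG, and leaving out replicates. Leaving out 3 libraries was added after seeing the data.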

Additional observations from a re-analysis of the deposited data

Results flagged for a closer look

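Single libraries stood apart from the rest of their cell type and day at 15 of 372 combinations of element and group, where chance gives about 1 in 20, or 18.6. Of these, 4 were p2 day 6 100 nM replicate 3: Id1 -11.5 kb had 264 normalized counts (others 558 to 772), Id2 -0.5 kb 1183 (others 1274 to 1326), Smad7 +27.4 kb 126 (others 232 to 325) and Bambi -0.3 kb 1511 (others 1744 to 1780). A further 2 were p2 day 5 100 nM replicate 3, with Id2 -3.1 kb at 1322 (others 1486 to 1581) and Id4 +0.6 kb at 1108 (others 1183 to 1205). The first of these libraries is among the 3 that correlated least with their group.

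The other low values were Smad6 +0.2 kb in p3 day 4 500 nM replicate 1 at 1805 (others 2173 to 2341), Smad7 +8.3 kb in pMN day 4 500 nM replicate 3 at 432 (others 472 to 496) and in p2 day 5 10 nM replicate 1 at 605 (others 696 to 754), Smad7 +18.5 kb in p3 day 5 100 nM replicate 1 at 209.9 (others 303 to 329), and Bmp4 -46.2 kb in p3 day 4 100 nM replicate 2 at 163 (others 213 to 226). The high values were Id2 +12.2 kb in pMN day 5 500 nM replicate 3 at 27.1 (others 16.9 to 19.3), Bambi -0.3 kb in p0-1 day 4 10 nM replicate 3 at 2302 (others 1316 to 1601), Bmp4 -46.2 kb in p0-1 day 5 0 nM replicate 3 at 288 (others 81.4 to 131) and Bmp7 +73.0 kb in pMN day 6 500 nM replicate 3 at 28.0 (others 16.0 to 17.0).

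The change from day 4 to day 6 differed between p3 and pMN by the limma test of the difference at 4 elements, with log2 differences of -1.15 at Id1 +3.3 kb, -2.42 at Id4 -102 kb, -1.62 at Smad7 +13.3 kb and -1.32 at Smad7 +27.4 kb.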

How the results depend on the processing

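Of the 142 called differences between groups at members, none changed direction under any alternative that gave a value. The counts of members called from NMP to day 4, from day 4 to day 6, for p3 against the other NPs at days 4, 5 and 6, among p0-1, p2 and pMN at days 4, 5 and 6, with SAG, and for the difference in change between p3 and pMN were 18, 14, 0, 8, 11, 1, 4, 3, 0 and 4. With an absolute log2 ratio above 2 they were 7, 5, 0, 1, 5, 0, 1, 1, 0 and 1. With no filter on the mean they were 62, 47, 5, 32, 28, 6, 14, 6, 0 and 10, since all 99 members were then tested. With the threshold on the VST difference the count among p0-1, p2 and pMN at day 4 was 0. Leaving out 1 replicate number at a time gave 17 to 20, 14, 0, 7 to 10, 8 to 10, 0 to 1, 3 to 5, 0 to 4, 0 and 2 to 6. The counts of 0 and of 2 were without replicate 2 (day 4 and day 6 among p0-1, p2 and pMN) and without replicate 3 (difference in change), and the cause was not tested. The replicate block with title numbers gave 18, 14, 0, 8, 12, 1, 5, 4, 0 and 7, and with description numbers 5 for the difference in change. The pairing holds within days 5 and 6, and there the block ended no call. Across days 4 and 6 the numbers were not shown to pair p3 and pMN samples (median r of 0.36 for the same number, lowest -0.06). The SD of the 25 condition means had a median of 0.65 over members with log2(normalized count + 1), against 0.80 over all elements. Of the 142 differences, the replicate block ended 0 (title) or 1 (description), 1 joint fit 1, no trend 1, centring 2, voom 6, the VST threshold 10, and leaving out replicate 1, 2 or 3 ended 22, 25 or 13. A further 4 fell below the filter without replicate 2 (Id2 +12.2 kb from NMP to p3, Id4 -107 kb in pMN from day 4 to day 6 and against p3 at day 6, Id4 -99.6 kb in p3 from day 4 to day 6) and 4 without replicate 3 (Bambi +314 kb in p0-1 from day 4 to day 6 and against p2 at day 6, the difference in change at Smad7 +13.3 kb, Bmp4 -46.2 kb in p3 against pMN at day 5). Without the 3 libraries that stand apart, 4 differences at Bambi +314 kb fell below the filter. With members within 100 kb alone the counts were 15, 11, 0, 6, 8, 1, 3, 2, 0 and 3. Depth limits the low elements: 54 members were never tested.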
